A study of Homo sapiens with 12 samples.

Results

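NF-κB subunits and feedback genes that NF-κB itself induces were examined as 10 genes. These were the 5 subunits RELA, NFKB1, NFKB2, RELB and REL and the 5 feedback genes NFKBIA, NFKBIE, NFKBIZ, TNFAIP3 and BIRC3. They were chosen by symbol from a deposited count table of 57500 genes, in which each had 1 row, and all 10 were among the 16251 genes that passed the filter on low counts. RNA was sequenced from MRC5, a line of human embryonic lung fibroblasts, in 12 libraries that form 4 groups of 3. Proliferating cells (Prol) received no irradiation. Senescent cells (Sen(IR)) had received 20 Gy of X-rays and were collected 10 to 12 days later. The other two groups were irradiated in the same way and kept in a mitochondrial carrier inhibitor from day 1 on. Sen(IR)+UK5099 received 100 μM UK5099, which blocks the mitochondrial pyruvate carrier. Sen(IR)+CTPI2 received CTPI2, which blocks the mitochondrial citrate carrier SLC25A1, and for which the methods name 15 and 30 μM without saying which of these was sequenced. All groups are 1 cell line, with no engineered allele. The comparisons ask how the NF-κB system stands at the RNA level in irradiation-induced senescence and what either inhibitor does to it.

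NF-κB proteins work as dimers. The REL-type subunits (RELA, RELB and REL) carry a transactivation domain, while NFKB1 and NFKB2 encode the precursors p105 and p100, which are processed to the DNA-binding partners p50 and p52. In the canonical pathway, receptors for TNF or IL-1 activate the IKK kinase complex, IκB proteins are degraded and dimers containing RELA enter the nucleus. In the non-canonical pathway, the kinase NIK (MAP3K14) drives the processing of p100 and the release of RELB dimers. NF-κB then induces its own brakes, including IκBα (NFKBIA), IκBε (NFKBIE) and the deubiquitinase A20 (TNFAIP3), as well as some of its own subunits, and in senescent cells it is known as a main transcriptional activator of the secretory phenotype.

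The libraries held 20597736 to 28245693 counts. Levels are in CPM, counts divided by the TMM-scaled size of the library (factors 0.953 to 1.05), and 3 counts, taken as the floor of detection, equalled 0.111 to 0.147 CPM. All 10 fibroblast markers were detected in every group, with a summed level of 25489.8 to 28998 CPM for Prol, 26369.5 to 27471 CPM for Sen(IR), 23325 to 25554 CPM under CTPI2 and 15624 to 16764 CPM under UK5099. From Sen(IR) to UK5099 the largest falls in CPM were those of COL1A1 (4714 to 1601), COL1A2 (7321 to 3519) and COL3A1 (2752 to 819). DCN was level (1363 and 1362 CPM). Of the 10 markers, 5 were lower with UK5099 at an adjusted p under 0.05 and a log2 fold change beyond 0.5 (edgeR), and 5 were not. The 5 epithelial markers summed to at most 1.34 CPM in any library. The 7 leukocyte markers rose from 1.07 to 1.36 CPM for Prol to 5.20 to 5.61 CPM for Sen(IR), carried by CD14 and CD68, and stood at 4.11 to 4.30 CPM under UK5099 and 5.33 to 6.93 CPM under CTPI2, while PTPRC, which marks all leukocytes, was at most 0.274 CPM on average in any group. Of the 5 endothelial markers, which summed to 354 to 366 CPM for Sen(IR), 299 to 329 CPM under CTPI2, 207 to 236 CPM under UK5099 and at least 154 CPM for Prol, nearly all was TEK (172 ± 24 CPM for Prol), with PECAM1 at most 0.286 CPM on average. The part of these shifts in the results was not tested, and in bulk RNA fewer cells of a type cannot be told apart from less RNA per cell. Nothing in the sample labels says that the 3 libraries of a group came from separate cultures. Figure legends of the paper name 3 independent experiments for the CTPI2 heatmaps and 3 independent conditions for the RNA-seq shown with UK5099. The p-values measure the spread between these libraries.

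Irradiation-induced senescence raised 7 of the 10 genes, namely NFKB2, RELB and all 5 feedback genes, by 1.99-fold (NFKBIE) to 6.26-fold (NFKBIZ). RELA, NFKB1 and REL were not called. Calls required an edgeR quasi-likelihood test with an adjusted p under 0.05 and a log2 fold change beyond 0.5 in size, a rule that called 24.8% of all genes tested higher and 22.4% lower in Sen(IR) than in Prol. In senescent cells the same 7 genes and NFKB1 were lower with UK5099 (8 of 10), where 12.1% of all genes were called lower, and the falls reached 18.1-fold for BIRC3 and 19.4-fold for TNFAIP3. CTPI2 lowered none of the 10 by this rule, under which 0.148% of all genes were called lower. All 10 fitted differences were negative, where the median over all genes tested was 0.00. With 1 library left out, those of REL and RELA also took positive values (up to 0.063 and 0.038). The median log2 fold change over the 10 genes was 1.35 in Sen(IR) against Prol, -1.51 in Sen(IR)+UK5099 against Sen(IR) and -0.22 in Sen(IR)+CTPI2 against Sen(IR), beside 0.01, 0.01 and 0.00 over all genes tested. The groups' libraries did not overlap for 7, 9 and 5 of the 10 genes in these 3 comparisons, as for 70.9%, 56.6% and 15.1% of all genes. The last 2 comparisons share the Sen(IR) libraries, as do the first 2, so their values are not independent of each other.

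**Figure D1:**
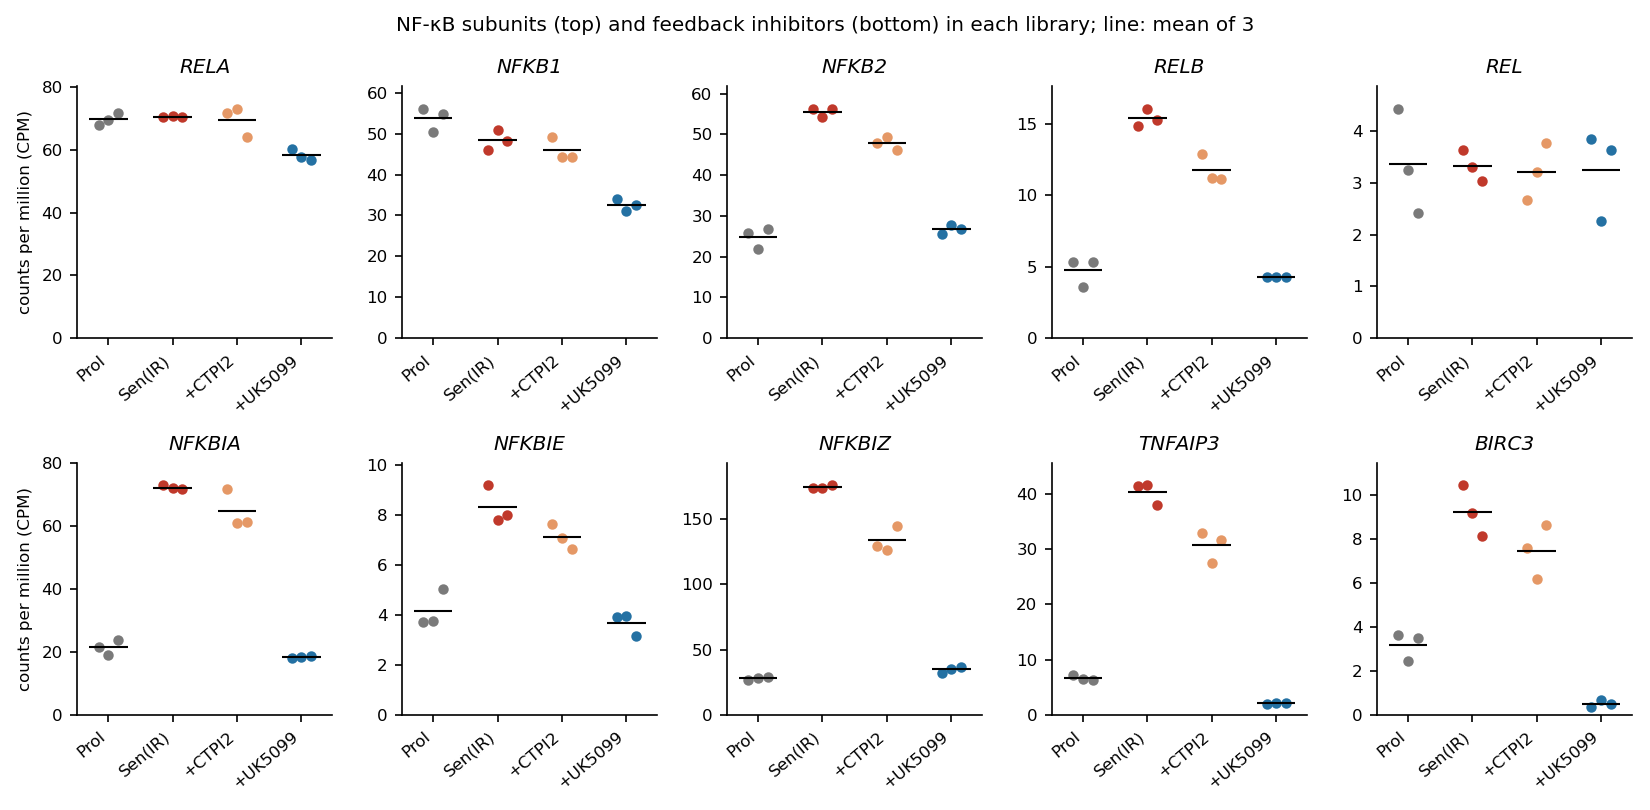
Level of each gene in CPM (vertical axes, linear and starting at 0) in each of the 12 libraries, by group (horizontal axis), with points for libraries and a line for the mean of 3. The 7 genes that rose in Sen(IR) lay nearer to Sen(IR) than to Prol with CTPI2 and returned to the Prol level or below with UK5099, except NFKBIZ, which stayed slightly above Prol.

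RELA encodes p65, the main transactivating subunit of the canonical pathway (chr11:65653599-65663090, minus strand, GRCh38). Its level was 67.7, 69.5 and 71.8 CPM in the 3 Prol libraries and 70.3, 70.9 and 70.4 CPM for Sen(IR). With CTPI2 it was 71.7, 73.0 and 64.1 CPM. These 3 groups overlapped, with log2 fold changes of 0.02 ± 0.06 (SE; adjusted p = 0.80) for Sen(IR) against Prol and -0.02 ± 0.06 (adjusted p = 0.98) for CTPI2 against Sen(IR), and 95% intervals of -0.10 to 0.14 and -0.14 to 0.10. With UK5099 the level was 60.4, 57.7 and 56.7 CPM, below every library of the other groups. The log2 fold change against Sen(IR) was -0.28 ± 0.06 (adjusted p = 4.8e-04), under the fold limit, so RELA was not called there.

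NFKB1, the gene of p105 and p50 (chr4:102501330-102617302, plus strand), measured 56.0, 50.4 and 54.8 CPM for Prol, 46.1, 50.8 and 48.2 CPM for Sen(IR) and 49.2, 44.2 and 44.2 CPM under CTPI2. The Sen(IR) libraries lay slightly under Prol with 1 overlap, and the log2 fold change of -0.15 ± 0.07 passed the limit on the adjusted p in edgeR (0.044) but not in DESeq2 (0.10) and was far under the fold limit. With UK5099 it was 33.9, 31.1 and 32.5 CPM, lower than in every other library, and fell by 0.57 on the log2 scale against Sen(IR) (SE 0.07, adjusted p = 3.4e-07).

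REL encodes c-Rel, a subunit used mainly by lymphoid cells (chr2:60881491-60931612, plus strand). It was the least abundant subunit per kb of exon or of coding sequence, at 4.44, 3.26 and 2.42 CPM for Prol, 3.65, 3.32 and 3.04 CPM for Sen(IR), 2.67, 3.22 and 3.77 CPM under CTPI2 and 3.85, 2.26 and 3.64 CPM under UK5099. All 4 groups overlapped. No comparison passed the test, at 61 to 104 counts a library. The 95% intervals ran from -0.47 to 0.46 for Sen(IR) against Prol and from -0.51 to 0.42 for UK5099 against Sen(IR). A change inside these bounds was not detectable in these libraries, whose REL levels also varied within groups (SD 1.01 CPM around 3.37 CPM in Prol). Of its exon bases 33.3% are shared with another annotated gene on the same strand, where reads cannot be assigned to either. The sign of its fold change in Sen(IR) against Prol flipped under RLE and upper-quartile scaling.

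NFKB2 and RELB, whose products p100/p52 and RELB are the partners of the non-canonical pathway and which NF-κB also induces, were the 2 subunits that rose. NFKB2 (chr10:102394110-102402524, plus strand) went from 25.8, 21.8 and 26.7 CPM for Prol to 56.3, 54.2 and 56.2 CPM for Sen(IR), with no overlap (log2 fold change 1.16 ± 0.07, adjusted p = 2.0e-12). With UK5099 it was 25.5, 27.7 and 26.7 CPM, which overlaps Prol and lies under every Sen(IR) library (log2 fold change against Sen(IR) -1.06 ± 0.07, adjusted p = 3.8e-11). With CTPI2 the 47.8, 49.4 and 46.3 CPM lay below Sen(IR) and far above Prol, and the difference from Sen(IR) of -0.22 ± 0.07 (log2) had an adjusted p of 0.30. RELB (chr19:45001461-45038192, plus strand) rose by 1.69 ± 0.12 on the log2 scale, from 5.29, 3.61 and 5.32 CPM for Prol to 14.8, 16.0 and 15.3 CPM for Sen(IR) (adjusted p = 4.8e-11). UK5099 libraries held 4.31, 4.30 and 4.26 CPM, inside the Prol range, and the fall from Sen(IR) was -1.84 ± 0.13 (log2, adjusted p = 5.7e-11). In CTPI2 libraries RELB measured 12.9, 11.2 and 11.1 CPM, again between Sen(IR) and Prol (log2 fold change against Sen(IR) -0.39 ± 0.11, adjusted p = 0.22).

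The make-up of the subunit transcripts therefore differed between groups. Divided by exon length, the 5 subunits summed to 22.4 ± 1.08 CPM per kb in Prol (SD, n = 3), 31.3 ± 0.212 in Sen(IR), 28.3 ± 1.36 with CTPI2 and 19.1 ± 0.287 with UK5099. RELA supplied 57.0 ± 2.64% of that sum in Prol and 41.3 ± 0.143% in Sen(IR), and 45.0 ± 1.18% and 55.7 ± 0.964% with CTPI2 and UK5099. RELB supplied 7.02 ± 1.18%, 16.4 ± 0.544%, 13.8 ± 0.900% and 7.48 ± 0.0820% in the same order. The share of NFKB2 was 19.8 ± 1.22% in Prol, 31.8 ± 0.848% in Sen(IR), 30.2 ± 0.900% with CTPI2 and 25.0 ± 1.30% with UK5099. The share of NFKB1 was 15.3 ± 0.431% in Prol and 9.86 ± 0.416% in Sen(IR), with 10.3 ± 0.514% and 10.8 ± 0.386% in the inhibitor groups. REL was at 0.623 to 0.991% on average in every group. Annotated exons of NFKB1 and REL span 15679 and 17129 bases, far more than their coding sequences of 2907 and 1761 bases, so the shares depend on the length used. Per kb of coding sequence, NFKB1 was above NFKB2 in Prol (24.8 ± 0.668% against 12.3 ± 0.879%) and below it in Sen(IR) (18.4 ± 0.722% against 22.7 ± 0.677%), while RELA was the largest by either length. These shares are descriptions with no test.

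**Figure D2:**
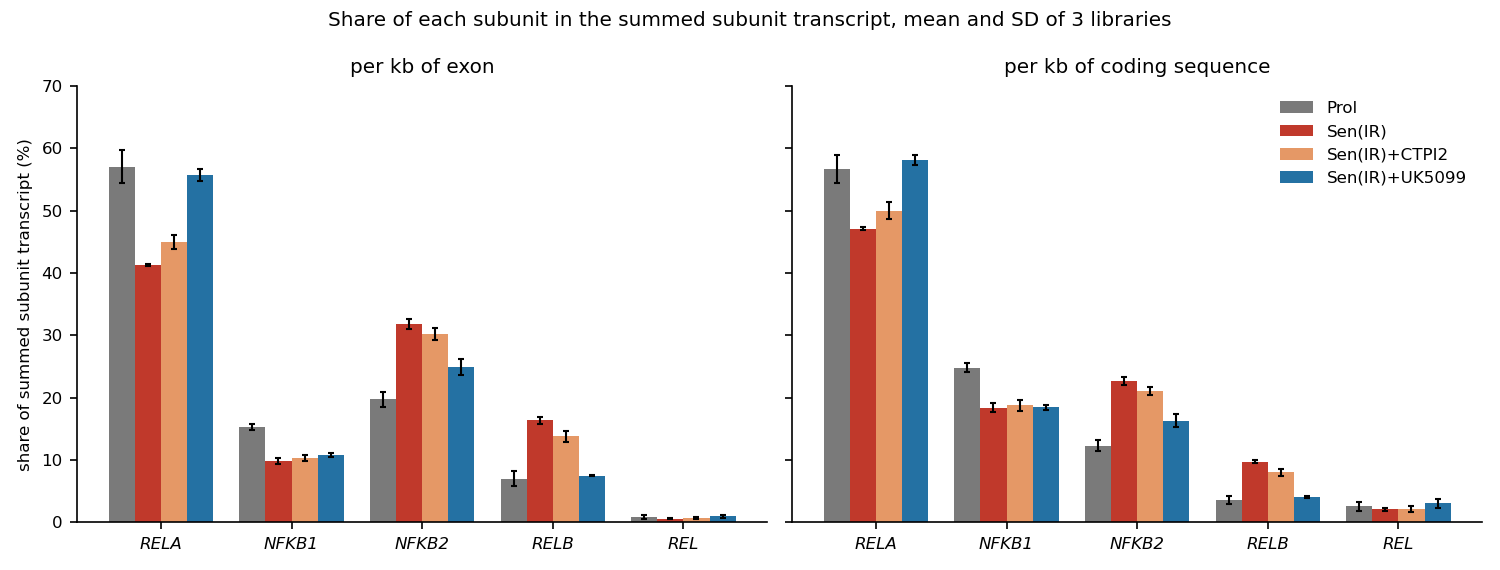
Share (%) of each of the 5 subunits in their summed transcript level, per kb of exon on the left and per kb of coding sequence on the right, with bars for the mean and error bars for the SD of 3 libraries in each group. By either length the RELA share was lower and the RELB and NFKB2 shares higher in Sen(IR) and with CTPI2 than in Prol, and the RELB share with UK5099 lay near that of Prol.

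Among the feedback genes, NFKBIA encodes IκBα, the inhibitor that holds RELA dimers in the cytoplasm and is resynthesised within the response (chr14:35401079-35404749, minus strand). It measured 21.6, 19.0 and 23.6 CPM for Prol and 72.9, 72.1 and 71.6 CPM for Sen(IR), a 3.36-fold rise with no overlap (log2 fold change 1.75 ± 0.08, adjusted p = 4.7e-15). In UK5099 libraries it measured 18.1, 18.5 and 18.6 CPM, all under every Prol library, and the fall against Sen(IR) was 3.92-fold (log2 fold change -1.97 ± 0.08, adjusted p = 3.5e-15). CTPI2 libraries held 71.7, 60.9 and 61.4 CPM, so 1 of them lay inside the Sen(IR) range (log2 fold change -0.16 ± 0.07, adjusted p = 0.63). NFKBIE, which encodes IκBε, an inhibitor with a slower response (chr6:44258166-44265788, minus strand), was at 3.71, 3.74 and 5.02 CPM for Prol, 9.16, 7.77 and 7.99 CPM for Sen(IR), 7.63, 7.06 and 6.62 CPM under CTPI2 and 3.89, 3.93 and 3.14 CPM under UK5099. Its changes were the smallest among the feedback genes, with log2 fold changes of 0.99 ± 0.14 for Sen(IR) against Prol (adjusted p = 2.1e-06) and -1.19 ± 0.14 for UK5099 against Sen(IR) (adjusted p = 6.0e-07).

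NFKBIZ encodes IκBζ, an atypical nuclear IκB that acts as a cofactor of NF-κB on secondary response genes such as IL6 (chr3:101827991-101861022, plus strand). Per kb of exon or of coding sequence it was the most abundant of the 10 genes in Sen(IR), and it rose from 26.8, 27.8 and 29.1 CPM for Prol to 173.8, 174 and 176 CPM (log2 fold change 2.65 ± 0.07, adjusted p = 2.2e-19). CTPI2 libraries held 129.8, 127 and 145 CPM, all below Sen(IR) (log2 fold change -0.38 ± 0.06, adjusted p = 9.6e-04, under the fold limit). UK5099 libraries held 32.2, 35.0 and 36.9 CPM, a 5.03-fold fall against Sen(IR) (adjusted p = 4.1e-18) that ended just above every Prol library. NFKBIZ was the 1 member with a higher level with UK5099 than in Prol at an adjusted p under the limit (log2 fold change 0.31 ± 0.07, adjusted p = 2.3e-04, under the fold limit).

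TNFAIP3 encodes A20, which removes and edits ubiquitin chains on RIPK1, TRAF6 and NEMO to end signalling (chr6:137867214-137883314, plus strand). It measured 7.25, 6.48 and 6.28 CPM for Prol, 41.6, 41.6 and 38.0 CPM for Sen(IR), 33.0, 27.5 and 31.7 CPM under CTPI2 and 1.95, 2.11 and 2.17 CPM under UK5099. The 4 groups did not overlap. The rise in Sen(IR) was 6.06-fold (log2 fold change 2.60 ± 0.09, adjusted p = 1.1e-16), and the fall with UK5099 was 19.4-fold (-4.28 ± 0.11, adjusted p = 1.3e-18), ending 3.20-fold below Prol (-1.68 ± 0.13, adjusted p = 9.0e-11). CTPI2 gave -0.40 ± 0.08 against Sen(IR) (adjusted p = 0.018, under the fold limit). That adjusted p ran from 0.0013 to 0.20 over the alternatives and was 0.20 without replicate 2 of Sen(IR)+CTPI2. BIRC3 encodes cIAP2, a ubiquitin ligase that works with TRAF2 in TNF receptor complexes, helps to degrade NIK and protects from apoptosis (chr11:102317484-102339403, plus strand). Its levels were low, at 3.63, 2.45 and 3.49 CPM for Prol, 10.5, 9.20 and 8.14 CPM for Sen(IR) and 7.59, 6.19 and 8.66 CPM under CTPI2. With UK5099 they were 0.331, 0.668 and 0.504 CPM, above the floor of 3 counts but from as few as 8 counts. BIRC3 rose 2.90-fold in Sen(IR) (1.53 ± 0.17, adjusted p = 4.4e-08) and fell 18.1-fold with UK5099 (-4.18 ± 0.23, adjusted p = 1.4e-12), to 6.26-fold below Prol (-2.65 ± 0.26, adjusted p = 5.9e-09).

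TNFAIP3 and BIRC3, which fell farthest with UK5099, and NFKBIA, the classical feedback inhibitor, are shown with the 250 bases before their annotated start (RefSeq, GRCh38.p14), in the direction of transcription. For TNFAIP3 the last 45 of these bases lie in an annotated exon of the gene and are left out. Capitals mark matches, on either strand, to the κB letters GGGNNTTTCC (GGAAANNCCC when read on the other strand).
NFKBIA, chr14:35404750-35404999, minus strand: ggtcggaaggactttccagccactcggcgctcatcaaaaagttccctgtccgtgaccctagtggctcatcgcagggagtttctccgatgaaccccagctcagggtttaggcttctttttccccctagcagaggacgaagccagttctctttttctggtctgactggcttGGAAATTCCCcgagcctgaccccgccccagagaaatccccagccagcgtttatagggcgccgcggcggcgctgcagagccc
TNFAIP3, chr6:137867009-137867213, plus strand: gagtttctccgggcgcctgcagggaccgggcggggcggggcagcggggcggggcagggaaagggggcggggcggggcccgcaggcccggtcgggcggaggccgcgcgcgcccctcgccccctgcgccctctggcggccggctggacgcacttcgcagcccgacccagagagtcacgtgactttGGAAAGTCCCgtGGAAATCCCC
BIRC3, chr11:102317234-102317483, plus strand: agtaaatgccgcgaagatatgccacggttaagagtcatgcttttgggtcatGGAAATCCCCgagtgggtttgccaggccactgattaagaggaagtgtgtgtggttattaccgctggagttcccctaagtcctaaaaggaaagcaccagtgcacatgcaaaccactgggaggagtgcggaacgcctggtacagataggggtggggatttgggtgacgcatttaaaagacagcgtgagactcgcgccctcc
The match of NFKBIA (GGAAATTCCC) begins 81 bases before the start, those of TNFAIP3 (GGAAAGTCCC and GGAAATCCCC) 67 and 55 bases before it, and that of BIRC3 (GGAAATCCCC) 199 bases before it.

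Such letters were found in 1.73% of 35116 RefSeq windows of the same length, and in 8 of the 13 windows of the 8 members for which a window was held. The members include genes chosen as induced by NF-κB, so their share is not independent of that choice. At least 1 window of REL, NFKB1, NFKB2, NFKBIZ, TNFAIP3, BIRC3 and NFKBIA held a match, and neither window of RELA did. The NFKBIZ window with a match lay wholly in an annotated exon of NXPE3. A match of NFKB2 was in a window wholly inside an NFKB2 exon, and those of REL and NFKB1 were in windows that overlap annotated exons in part. RELB and NFKBIE were not searched. A wider form, GGGNNNNNCC, which includes every match of the narrow one, was present in 12 of the 13 windows but also in 54.4% of all windows. Matches were thus held by members that rose in Sen(IR) and by NFKB1 and REL, which did not. A match is a description of letters and not a bound site.

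Direct comparison of the inhibitor groups gave 7 genes lower with UK5099 than with CTPI2 (NFKB2, RELB and the 5 feedback genes), where 11.7% of all genes were called lower. The log2 differences were -3.88 ± 0.11 for TNFAIP3, -3.87 ± 0.23 for BIRC3, -1.95 ± 0.06 for NFKBIZ, -1.81 ± 0.08 for NFKBIA, -1.45 ± 0.13 for RELB, -0.96 ± 0.15 for NFKBIE and -0.84 ± 0.07 for NFKB2. NFKB1 was at the fold limit (-0.50 ± 0.07, adjusted p = 2.8e-06) and would be called without CTPI2 replicate 2 or 3 or UK5099 replicate 1 (-0.52, -0.52 and -0.53). RELA was lower with UK5099 by less than the fold limit (-0.26 ± 0.06, adjusted p = 9.6e-04), and for REL the interval of the difference was -0.45 to 0.47. The concentrations of the 2 inhibitors were not matched.

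Set against proliferating cells, the CTPI2 group still had the same 7 genes higher (24.8% of all genes were called higher), with log2 fold changes of 0.77 ± 0.14 (NFKBIE) to 2.26 ± 0.06 (NFKBIZ). The UK5099 group had 0 of the 10 higher and 3 lower by edgeR (NFKB1, TNFAIP3 and BIRC3), where 26.2% of all genes were called lower, and DESeq2 gave the same counts. In CTPI2 against Sen(IR), 5 of the 10 genes (NFKB2, RELB, NFKBIA, NFKBIZ and TNFAIP3) had an unadjusted p under 0.05, as did 7.27% of all genes in either direction, and 2 (NFKBIZ and TNFAIP3) had an adjusted p under 0.05 without regard to fold, as did 0.486% of all genes.

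**Figure D3:**
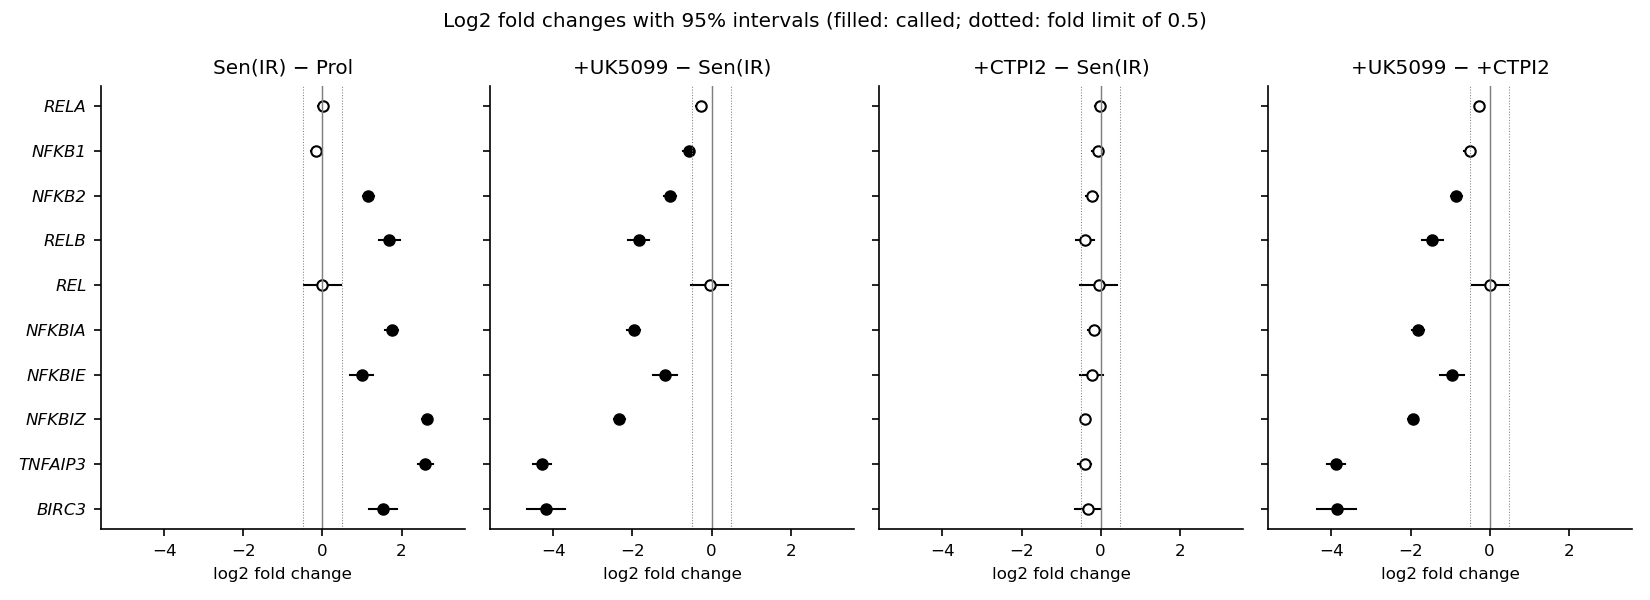
Log2 fold change (horizontal axes) of each of the 10 genes in 4 comparisons, with 95% intervals as lines, filled points for called genes and dotted lines at the fold limit of 0.5. In Sen(IR) against Prol the 7 called genes lie between 0.99 and 2.65, with UK5099 against Sen(IR) 8 genes lie between -0.57 and -4.28, and with CTPI2 against Sen(IR) no interval of any gene lies wholly beyond the limit.

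The feedback genes also changed relative to the subunits. Per kb of exon, the log2 ratio of NFKBIA to the 5 summed subunits was -1.83 ± 0.09 in Prol (SD, n = 3), -0.56 ± 0.02 in Sen(IR), -0.58 ± 0.11 with CTPI2 and -1.82 ± 0.04 with UK5099, so that the CTPI2 libraries spanned the Sen(IR) values and the UK5099 libraries lay within the Prol range. For NFKBIZ the ratio was -2.24 ± 0.07, -0.08 ± 0.01, -0.32 ± 0.17 and -1.70 ± 0.12 in the same order. The ratio of TNFAIP3 went from -4.44 ± 0.13 in Prol to -2.32 ± 0.08 in Sen(IR) and -2.57 ± 0.17 with CTPI2, and to -5.89 ± 0.10 with UK5099, below Prol. In the order Prol, Sen(IR), CTPI2 and UK5099, NFKBIE was at -3.81 ± 0.20, -3.28 ± 0.14, -3.37 ± 0.05 and -3.77 ± 0.17. BIRC3 was at -5.74 ± 0.25, -4.67 ± 0.19, -4.84 ± 0.30 and -8.22 ± 0.52, the last from as few as 8 counts. These are ratios of RNA levels with no test, and protein was not measured in these libraries.

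In order of mean level, RELB, NFKBIA, NFKBIE, TNFAIP3 and BIRC3 ran Sen(IR), CTPI2, Prol and UK5099, and NFKB2 and NFKBIZ ran Sen(IR), CTPI2, UK5099 and Prol. Between the neighbours Sen(IR) and CTPI2 no gene was called. The step from CTPI2 to the next lower group was called for all 7 of these genes, and the lowest step for TNFAIP3 and BIRC3 only. NFKB1 ran Prol, Sen(IR), CTPI2 and UK5099, and for NFKB1, RELA and REL no step between neighbours was called.

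The wider pathway was described by 85 genes in 7 lists. Over all genes tested, 24.8% were called higher and 22.4% lower in Sen(IR). With UK5099 12.1% were called lower, and 1423 of 16251 genes higher. In the IκB-type, A20 partner, kinase and adaptor lists, the counts that rose in Sen(IR) lay near the share of all genes. So did the A20 partner and kinase counts that fell with UK5099. Such counts are not a result about the list. Of the 8 other IκB-type proteins and inhibitors, 2 rose in Sen(IR), NKIRAS1 (0.53) and NFKBIL1 (0.50, log2 fold changes), and 2 fell with UK5099. The latter were BCL3, an atypical nuclear IκB that binds p50 and p52 (11.3 ± 0.67 CPM for Sen(IR), 4.40 ± 0.93 CPM under UK5099, log2 fold change -1.36, adjusted p = 6.7e-08), and NFKBID (-0.57), close to the limit on the adjusted p. BCL3 was not called in Sen(IR) (14.5 ± 2.1 CPM for Prol, log2 fold change -0.35). Of 13 A20 partners, deubiquitinases and members of the linear ubiquitin ligase, 4 rose and 2 fell in Sen(IR), and 1 rose and 2 fell with UK5099. ZC3H12A, the RNase Regnase-1, which degrades inflammatory mRNAs, was at 4.32 ± 0.57 CPM for Prol, 28.5 ± 1.1 CPM for Sen(IR), 23.5 ± 1.3 CPM under CTPI2 and 3.78 ± 0.34 CPM under UK5099. TNIP1, a ubiquitin-binding partner of A20, followed the same order at 66.9 ± 4.2, 153 ± 2.2, 134 ± 7.0 and 65.6 ± 1.5 CPM. CYLD, another deubiquitinase of the pathway, rose in Sen(IR) (0.91) and was not called with UK5099 (0.05), as was the A20 partner RNF11 (0.86 and 0.15). OTULIN, which cuts linear chains, fell in Sen(IR) (-0.69). TNIP3 was the gene that fell in Sen(IR) (-1.15) and rose with UK5099 (1.84). It was at 0.970 ± 0.36 CPM for Prol, 0.434 ± 0.13 CPM for Sen(IR) and 1.57 ± 0.31 CPM under UK5099. These levels are low, with 0.343 CPM in the lowest Sen(IR) library, not far above the floor of 3 counts.

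Of the 12 IKK complex members and kinases, 3 rose and 2 fell in Sen(IR), beside 24.8% and 22.4% of all genes. Their median log2 fold change was -0.04. MAP3K8 (2.19), a kinase that p105 holds, IKBKE (1.00) and TAB3 (0.78) rose, whereas MAP3K14 (-1.44), which encodes NIK, and CHUK (-0.55), which encodes IKKα, fell. IKBKE (-1.61) and MAP3K8 (-0.96) were the 2 that fell with UK5099. Of the 10 adaptors, TRAFs and other IAPs, TRAF1 (1.71) and TRADD (0.60) rose and TRAF5 (-1.47), TRAF2 (-0.97) and BIRC2 (-0.65) fell in Sen(IR). With UK5099 0 were called. There 7 had an unadjusted p under 0.05 in edgeR, as did 8391 of the 16251 genes tested. BIRC2, the paralogue of BIRC3 that encodes cIAP1, was thus at 185 ± 18 CPM for Prol, 118 ± 6.0 CPM for Sen(IR) and 97.8 ± 4.7 CPM under UK5099. TRAF1, another known NF-κB target, was at 6.84 ± 0.19 CPM for Sen(IR) and 8.02 ± 0.65 CPM under UK5099.

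Of the 11 receptors 9 were tested. TLR3 (1.76), LTBR (0.92) and IL1R1 (0.59) were among the 4 that rose in Sen(IR), and TNFRSF12A (-0.62) and TNFRSF1B (-0.61) fell. Of all genes, 24.8% were called higher and 22.4% lower there, so the count that fell was near the share of all genes. With UK5099 TLR3 (-1.61), TNFRSF1B (-1.23) and TNFRSF12A (-0.62) fell and none rose, beside 12.1% of all genes called lower. Of the 11 ligands only 6 passed the filter, some of them through the groups in which they were high, and TNF, LTA and LTB were at most 0.0931 CPM on average in any group. IL1A, IL1B, IL33, TNFSF13B and TNFSF14 rose in Sen(IR) and fell with UK5099. These 5 of the 6 stand beside 24.8% of all genes called higher in Sen(IR) and 12.1% called lower with UK5099. TNFSF14 was at 0 CPM for Prol, 1.41 CPM for Sen(IR) and 0.0138 CPM under UK5099. For ligands with such levels the direction is not independent of the filter. IL1B, for example, was at 0.377 ± 0.14 CPM for Prol, 13.7 ± 0.97 CPM for Sen(IR), 6.93 ± 1.4 CPM under CTPI2 and 0.0514 ± 0.020 CPM under UK5099, which is under the floor, and it was the 1 ligand called lower with CTPI2 (log2 fold change -0.98, adjusted p = 4.3e-04). TNFSF13B, which encodes BAFF, went from 0.752 ± 0.16 to 6.08 ± 0.58 CPM for Sen(IR) and was at 1.57 ± 0.22 CPM under UK5099.

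Among 20 known NF-κB target genes, 19 were tested. Some passed the filter through the groups in which they were high, such as CCL20 (0 CPM for Prol and under UK5099, 5.10 CPM for Sen(IR)). For such genes the direction is not independent of the filter. Of the 19, 17 rose and 1 fell in Sen(IR), beside 24.8% and 22.4% of all genes. With UK5099 18 fell and with CTPI2 5 fell, beside 12.1% and 0.148% of all genes. The chemokine CXCL8 was at 3.78 ± 1.4 CPM for Prol, 539 ± 13 CPM for Sen(IR), 255 ± 59 CPM under CTPI2 and 1.85 ± 0.39 CPM under UK5099. IL6 followed at 2.73 ± 0.80, 113 ± 8.3, 61.4 ± 5.9 and 1.17 ± 0.38 CPM, and CXCL1 at 0.308 ± 0.23, 295 ± 4.9, 138 ± 15 and 0.234 ± 0.034 CPM. The 5 targets called lower with CTPI2 were CXCL1 (-1.09), CXCL3 (-1.12), CXCL8 (-1.08), IL6 (-0.89) and CCL20 (-1.08). GADD45B fell in Sen(IR) (-1.03), PLAU was not called there (0.07) and fell with UK5099 (-3.76), and CFLAR rose in Sen(IR) (0.65) and was the 1 target not called with UK5099 (0.10). Many of these genes encode secreted factors on which the study's question turns, so their direction is not independent of the choice of the list.

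**Figure D4:**
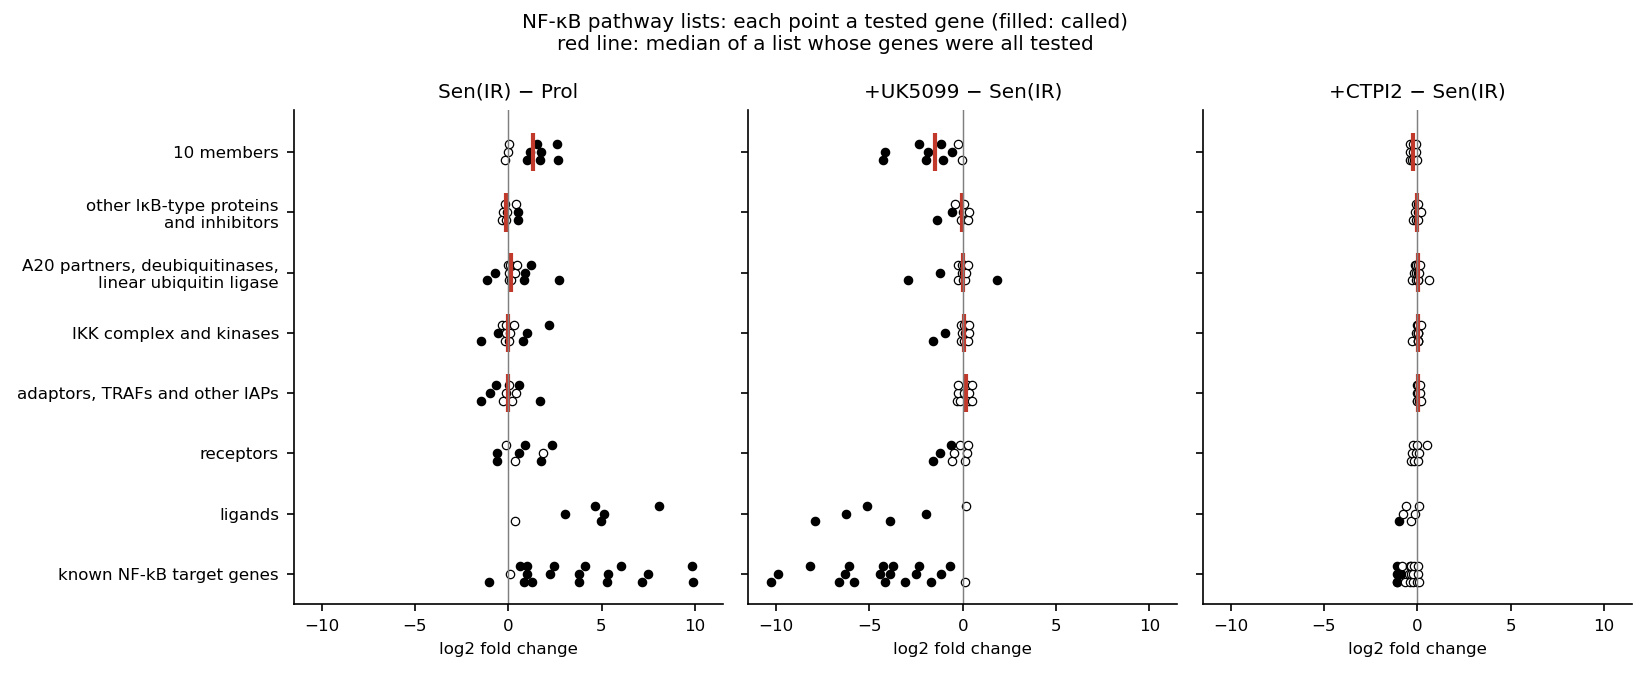
Log2 fold change (horizontal axes) of every tested gene in the 10 members and in 7 NF-κB pathway lists, for 3 comparisons, with filled points for called genes and a red line at the median of each list whose genes were all tested. No median is drawn for receptors, ligands and target genes, some of which did not pass the filter on low counts, and the medians of the kinase and adaptor lists lie within 0.2 of 0 in all 3 panels.

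Genes outside all these lists were ranked by how little their log2 CPM, centred on the gene's own mean, differed from a member's over the 12 libraries. The measure was the root mean square difference, with 2 named for each member but REL. POU2F2 was nearest to TNFAIP3 and LRRN3 to BIRC3, with SERPINB2 second for both. OLR1 and SCG2 were nearest to NFKBIZ, MT1L and IFIT3 to NFKBIA, HLA-B and LXN to NFKBIE, BMPER and P3H2 to RELB, and MFGE8 and SLC16A3 to NFKB2. NOL6 and VCL were nearest to NFKB1, and MDH2 and DNAJB12 to RELA. SERPINB2, which encodes the plasminogen activator inhibitor PAI-2, had mean log2 CPM of 4.05 in Prol, 6.07 in Sen(IR), 5.92 with CTPI2 and 2.07 with UK5099. These likenesses are descriptions over libraries of shared groups.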

How the data were processed

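RNA of 12 MRC5 samples was sequenced by the authors as paired reads of 150 bases, trimmed with Trimmomatic 0.36, aligned to GRCh38 with STAR 2.5.2b and counted per gene identifier (unique reads in exons) with featureCounts of Subread 1.5.2. Strand-specific counting is not stated. The deposited values are raw counts, without normalization. Here edgeR 4.0.16 (filterByExpr, TMM, glmQLFit and glmQLFTest; R 4.3.3) was fitted to all 12 libraries without a replicate term, with Benjamini-Hochberg adjustment over 16251 genes in each of 6 comparisons. SE is the absolute log2 fold change over the square root of F, and intervals are at 95%. The test was tried on simulated counts before use. Replicate numbers did not pair the samples (correlations of same-numbered deviations -0.05 to 0.04), and library pairs of a group differed by 2.24 to 12.5 times sampling noise (chi-square per gene). Exon and coding lengths and coordinates came from GENCODE v44 (GRCh38). The members and lists were chosen with earlier results of these data known. All 10 members were named, with up to 3 called genes per list, direction and comparison at a mean log2 CPM above 1 and 2 nearest genes per member, those of REL not reported here. NFKBID, IL1A, IL1B, IL33, TNFSF14, TNF, LTA, LTB, CCL20, PLAU, CFLAR, RNF11 and TNIP3 were named after their values were seen. Alternatives were DESeq2 1.42.0, other scalings (RLE, upper quartile), fits with no filter or of 2 groups, a replicate block, other limits, coding length and leaving out each library.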

Additional observations from a re-analysis of the deposited data

How the results depend on the processing

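The counts of members called kept to within 1.5 times the reported count, with the same direction of calls, under DESeq2, RLE and upper-quartile scaling, no filter, fits of 2 groups, a limit of 1 on the log2 fold change and the unadjusted p, and with each library left out in turn. With the replicate block, all 6 counts were unchanged at 7, 8, 0, 7, 3 and 7 members, and the 2 signs it turned were those of REL in Sen(IR) against Prol (0.00066) and in UK5099 against CTPI2 (-0.0073). With no fold limit the count rose from 0 to 2 in CTPI2 against Sen(IR) and from 3 to 6 (5 lower and 1 higher) in UK5099 against Prol. It rose from 8 to 9 in UK5099 against Sen(IR) and from 7 to 9 in UK5099 against CTPI2. In Sen(IR) and in CTPI2 against Prol it rose from 7 to 8, where the gene added was NFKB1, which was lower. Upper-quartile scaling moved the median of all genes by 0.12 in Sen(IR) against Prol, 0.14 in UK5099 against Prol and 0.11 in CTPI2 against Prol.

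Other changes of sign were in REL and RELA, which were called in no comparison. For REL these were 0.0036 (DESeq2), 0.011 (RLE) and 0.12 (upper quartile) in Sen(IR) against Prol, and 0.091 and 0.055 (upper quartile) in UK5099 and CTPI2 against Prol. For RELA in CTPI2 against Prol they were 0.0064 (DESeq2), 0.0067 (RLE) and 0.11 (upper quartile). Leaving out 1 library, REL ran from -0.20 to 0.24 in Sen(IR) against Prol, -0.18 to 0.16 in UK5099 and -0.18 to 0.063 in CTPI2 against Sen(IR), -0.13 to 0.22 in UK5099 against CTPI2, and -0.25 to 0.20 in UK5099 and -0.26 to 0.19 in CTPI2 against Prol. RELA ran from -0.0023 to 0.040 in Sen(IR) against Prol, -0.055 to 0.038 in CTPI2 against Sen(IR) and -0.037 to 0.047 in CTPI2 against Prol.

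By coding length, the subunit shares in Prol, Sen(IR), UK5099 and CTPI2 were 24.8, 18.4, 18.4 and 18.8% for NFKB1, 12.3, 22.7, 16.3 and 21.1% for NFKB2, 3.65, 9.76, 4.08 and 8.02% for RELB and 2.58, 2.09, 3.04 and 2.19% for REL. For RELA they were 47.1% in Sen(IR), 58.1% with UK5099 and 50.0% with CTPI2, and in Prol the share moved by less than its SD. The log2 ratio of NFKBIA to the subunits became -1.73, -0.26, -1.65 and -0.31. Depth limits the statements on BIRC3 with UK5099 (8 to 18 counts a library) and, less so, on TNFAIP3 with UK5099 (47 to 57). For REL (61 to 104) the spread between libraries of a group limits them as well.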
